A study of Mus musculus with 2 samples.

Results

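The replication-dependent histone genes encode the bulk histones that package newly copied DNA. They were taken as every gene whose GENCODE M21 symbol starts with Hist1h, Hist2h, Hist3h or Hist4. The rule named 70 genes, of which 67 were matched by identifier among the 43346 genes of the deposited tables, and the remaining 3 (Hist2h2bb, Hist1h2bm and Hist1h2bh) were not analysed here. Of the 67 genes, 64 are annotated as protein coding. The tables come from whole spleens of C57BL/6J mice, an inbred laboratory strain, at 8 weeks of age. The animals were littermates of both sexes, with no treatment or altered allele given, and the labels do not say whether animals were pooled. RNA over 200 nucleotides was depleted of ribosomal RNA, selected for a poly(A) tail and read from both ends in 76-base reads. The series holds 2 biological replicates of a single group, called library 1 and library 2, so no condition was compared. Ratios are of library 1 over library 2, and every mean ± SD is over these libraries (n = 2), whose spread may be technical.

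In dividing cells, replication-dependent histone mRNAs are made in S phase from clustered, mostly intronless genes. Their pre-mRNAs are cut just after a short stem-loop by a machinery that uses the U7 small nuclear RNP and the stem-loop binding protein SLBP, so that the mature mRNA ends near the stem-loop instead of in a poly(A) tail. Some of these genes are also known to give longer, polyadenylated transcripts, above all in cells that have left the cell cycle. Adult mouse spleen holds both resting lymphocytes and dividing erythroid and B lineage cells.

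The stem-loop is the feature that sets the normal end of these mRNAs, and its versions are shown because they divide the histone classes. GENCODE M21 transcripts were searched on the sense strand for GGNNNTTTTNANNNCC, N being any base, with positions 3 to 5 able to pair with positions 12 to 14. The pattern was found in 42 of the 67 genes (62.7%), against 36 of 55380 other genes (0.0650%), among them the histone variant gene H2afx. The sequence of the highest gene of each of the 6 versions follows, 5′ to 3′, with the stem-loop in capitals and up to 5 flanking bases.
Hist1h2ap: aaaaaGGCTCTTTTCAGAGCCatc
Hist1h2bk: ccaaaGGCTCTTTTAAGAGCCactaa
Hist2h2ac: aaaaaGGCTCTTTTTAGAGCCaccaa
Hist1h4d: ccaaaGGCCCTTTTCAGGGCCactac
Hist1h4i: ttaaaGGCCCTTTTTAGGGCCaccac
Hist1h4b: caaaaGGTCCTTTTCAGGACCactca

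Counting from 1 at the 5′ end of the stem-loop, the version of Hist1h2ap was shared by 24 genes of the H1, H2A, H2B and H3 classes. All 11 H4 genes with a match carried the changes T4C and A13G relative to it, and none of the 31 matched genes of the other classes did. Among the H4 genes, 7 had the version of Hist1h4d, 2 that of Hist1h4i, which adds C10T, and 2 that of Hist1h4b, which adds C3T and G14A. The loop change C10A was found in 6 genes, 1 of H1, 2 of H2B and 3 of H3, and C10T without a stem change in Hist2h2ac alone. A gene without a match may have a model that stops short of its stem-loop, as given below for some models, or a stem-loop of other letters.

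The 2 promoters below are shown because each takes in most of the space between an H2A gene and an H2B gene that are transcribed away from each other. The first belongs to Hist1h2bg and also covers the start of Hist1h2ae. The second belongs to Hist1h2ap and ends just short of the start of Hist1h2br. They come from RefSeq on GRCm38.p6, at chr13:23571150-23571449 on the plus strand and at chr13:21833426-21833725 on the minus strand, from 250 bases before to 50 bases after each start. Capitals mark 3 promoter elements known from histone genes, searched on both strands and not overlapping here. The first is CCAAT. The next, a form of the TATA box, is spelled TATAAA. The last is the octamer, spelled ATTTGCAT.
Hist1h2bg: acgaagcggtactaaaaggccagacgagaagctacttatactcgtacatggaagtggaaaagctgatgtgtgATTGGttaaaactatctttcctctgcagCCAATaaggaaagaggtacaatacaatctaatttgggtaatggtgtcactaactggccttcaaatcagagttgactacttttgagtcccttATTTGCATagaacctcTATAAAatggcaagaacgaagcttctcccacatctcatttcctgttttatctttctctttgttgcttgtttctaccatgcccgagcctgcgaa
Hist1h2ap: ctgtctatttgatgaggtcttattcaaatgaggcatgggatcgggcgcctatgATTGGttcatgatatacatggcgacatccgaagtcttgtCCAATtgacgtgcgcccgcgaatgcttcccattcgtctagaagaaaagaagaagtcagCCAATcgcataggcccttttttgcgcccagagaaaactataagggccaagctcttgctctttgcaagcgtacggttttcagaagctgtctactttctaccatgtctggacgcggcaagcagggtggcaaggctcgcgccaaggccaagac

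RefSeq gave 60 promoters for 59 of the 67 genes. CCAAT on either strand was present in 85.0% of them, against 37.3% of 32791 promoters of other genes. It was in every promoter of the H1, H2A, H2B and H3 genes, which number 6, 18, 14 and 10, but in 3 of 12 H4 promoters. TATAAA was in 58.3% of the histone promoters, against 13.5% of the others. The octamer, known as a site for Oct factors, was in 12 of the 60 promoters, against 1.70% of the others, and those 12 belonged to H2A (7) or H2B (5) genes. Windows of genes transcribed away from each other can overlap, and both strands were searched, so the same site can count for both genes. This holds for the octamer of Hist1h2bg and Hist1h2ae, of Hist1h2bk and Hist1h2ah, and of Hist1h2ba and Hist1h2aa. CCAAT sites can likewise count for both genes. A match describes these letters in this window and not the binding of a factor.

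Although the RNA was selected for a poly(A) tail, most of the genes were detected. At 1 TPM or more in both libraries (a transcript level per length, scaled to a fixed total in each library), 58 of the 67 histone genes were detected, against 28.8% of all genes and 53.9% of protein-coding genes. They held 0.446% of gene TPM in library 1 and 0.286% in library 2, or 4425 and 2821 TPM in sum. In expected counts, the deposited estimates of read numbers, this was 63516 of 49686344 in library 1 and 46010 of 51393345 in library 2. The median gene of the group stood at 20.9 TPM (mean of both libraries), and the median of all protein-coding genes at 1.82 TPM. In both libraries 4 histone genes exceeded 100 TPM, 37 had their lower value from 10 to 100 TPM, 7 from 5 to 10 and 10 from 1 to 5. The remaining 9 were under 1 TPM in both libraries.

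**Figure D1:**
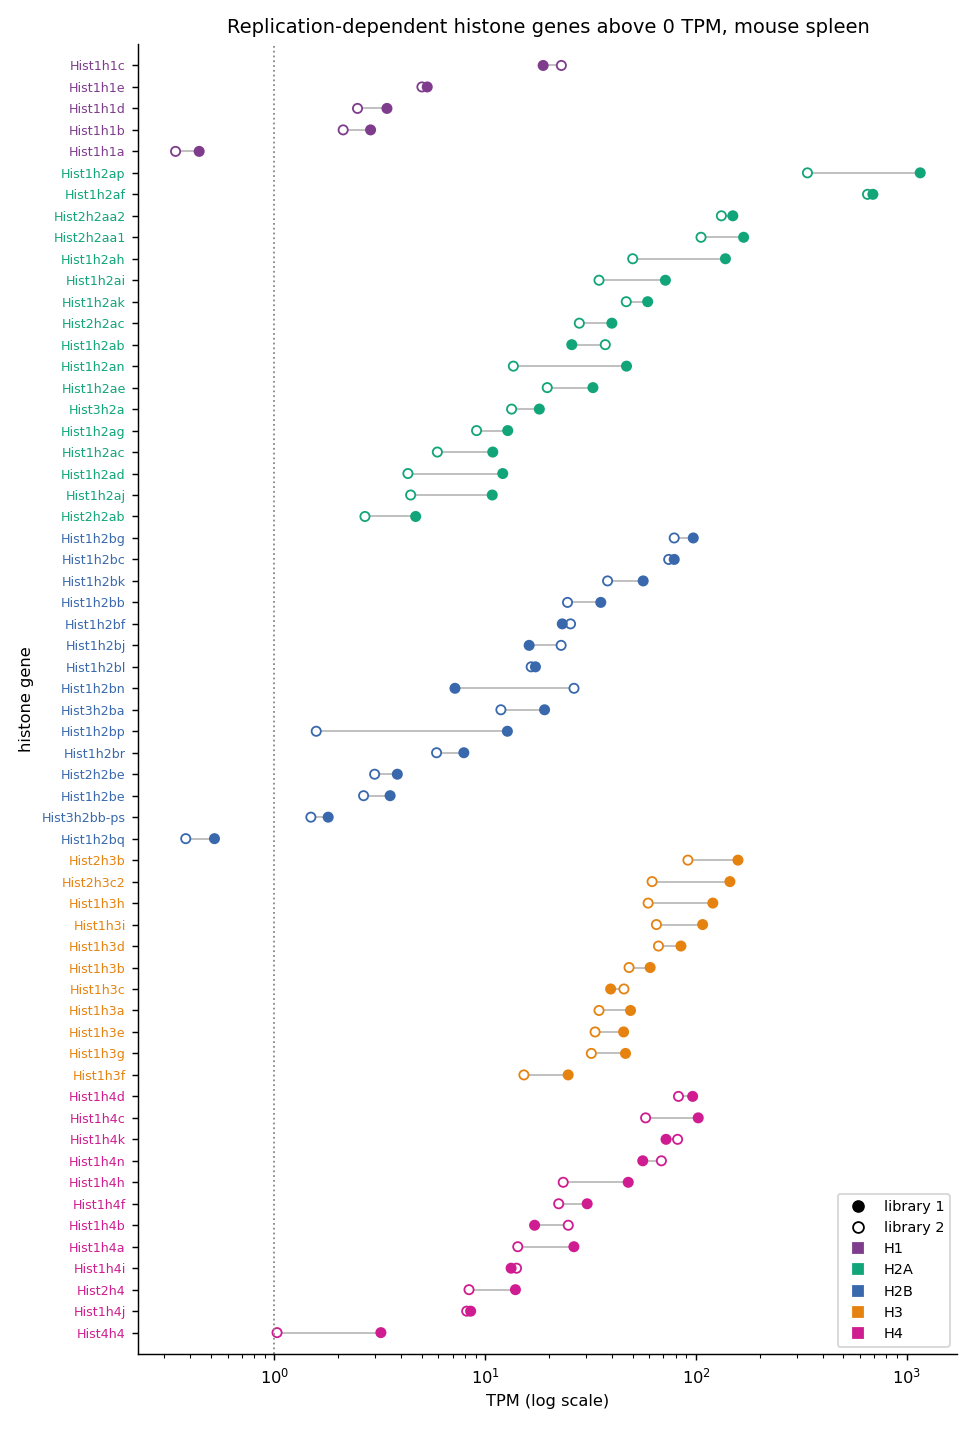
TPM on a log axis of the 60 histone genes above 0 TPM, grouped by class and ordered by mean, with library 1 as filled and library 2 as open circles, a grey line joining them, and a dotted line at 1 TPM. Hist1h2ap and Hist1h2af stand above every other gene in both libraries, and most filled circles lie to the right of the open ones.

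The levels were concentrated in few genes and in H2A. The 5 highest genes of each library held 52.5% of histone TPM in library 1 and 46.7% in library 2. H2A genes held 59.8% of it in library 1 and 53.0% in library 2, H3 genes 19.9% and 19.6%, H4 genes 11.01% and 14.4%, and H2B genes 8.60% and 11.8%. H1 genes, the linker histones, held 0.697% in library 1 and 1.17% in library 2. The nucleosome holds H2A and H2B in equal numbers. The summed H2A TPM was 6.95 times that of H2B in library 1 and 4.48 times in library 2. The H2B sum is incomplete, because the unmatched genes Hist2h2bb, Hist1h2bm and Hist1h2bh are all H2B genes by symbol. Much of the H2A sum lay in Hist1h2ap and Hist1h2af, whose levels are given below. These sums are of RNA selected for a poly(A) tail and do not measure protein.

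**Figure D2:**
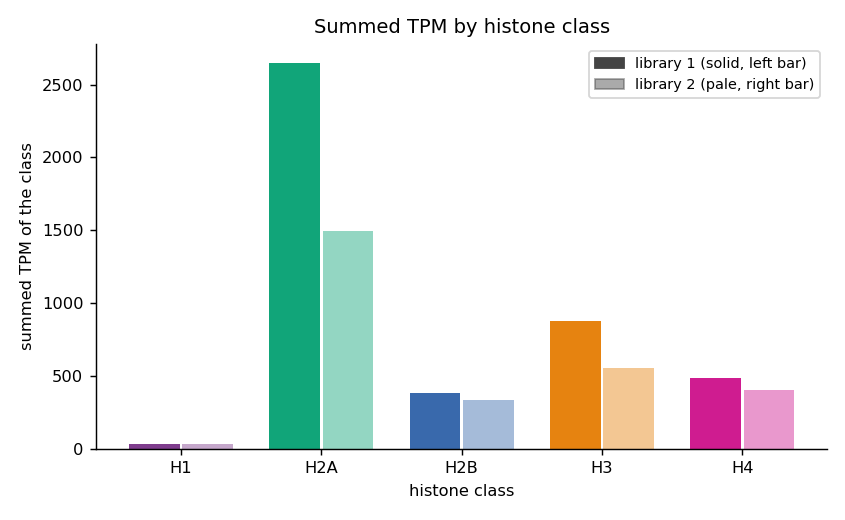
Summed TPM of the analysed genes of each histone class on a linear axis from 0. Library 1 is the solid left bar and library 2 the pale right bar. H2A reaches 2646 TPM in library 1 and 1495 TPM in library 2, above every other class in both.

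Among the core histones, which form the nucleosome, H2A had the highest 2 genes. Hist1h2ap (ENSMUSG00000094777, minus strand of chromosome 13 from 21833026 to 21833507, GRCm38) had 1156 TPM in library 1 and 338 TPM in library 2. Hist1h2af (ENSMUSG00000061991, plus strand of chromosome 13 from 23533906 to 23534304) had 689.7 TPM in library 1 and 650.4 TPM in library 2. Hist1h2ap was thus the higher in library 1 and the lower in library 2, and the means of 747 ± 579.04 and 670 ± 27.8 TPM (SD, n = 2) do not order them. Next came the neighbouring copies on chromosome 3, Hist2h2aa2 with 149 TPM in library 1 and 132 TPM in library 2, and Hist2h2aa1 with 168 and 106 TPM. Hist1h2ah had 138 TPM in library 1 and 50.1 TPM in library 2, Hist1h2ai 71.55 and 34.65 TPM, and Hist1h2ak 59.0 and 46.7 TPM. The other H2A genes above 0 lay between 2.69 and 46.8 TPM. In all, 17 of 20 H2A genes were detected, and the class median was 28.1 TPM.

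H3 genes had the highest class median, 48.4 TPM, with 11 of 12 detected. Hist2h3b led with 158 TPM in library 1 and 91.5 TPM in library 2, followed by Hist2h3c2 with 145 and 61.9 TPM. Hist1h3h had 120.1 TPM in library 1 and 59.2 TPM in library 2, and Hist1h3i had 107 and 64.9 TPM. These leading H3 genes were all higher in library 1. Hist1h3d had 84.8 TPM in library 1 and 66.3 TPM in library 2, Hist1h3b 60.6 and 48.1 TPM, and Hist1h3a 48.9 and 34.7 TPM. Hist1h3e had 45.3 TPM in library 1 and 33.2 TPM in library 2, and Hist1h3g had 46.3 and 31.9 TPM. Hist1h3c, at 39.35 TPM in library 1 and 45.5 in library 2, was the H3 gene with its lower value in library 1. The lowest detected H3 gene, Hist1h3f, had 24.7 TPM in library 1 and 15.3 TPM in library 2.

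H4 genes had a median of 20.96 TPM, with 12 of 13 detected. Hist1h4d had 96.3 TPM in library 1 and 82.5 TPM in library 2, and Hist1h4c had 102 and 57.65 TPM. Hist1h4k, at 72.05 TPM in library 1 and 81.7 in library 2, and Hist1h4n, at 55.9 and 68.5 TPM, were lower in library 1. Hist1h4h had 47.7 TPM in library 1 and 23.4 TPM in library 2. Another 6 H4 genes (Hist1h4f, Hist1h4b, Hist1h4a, Hist1h4i, Hist2h4 and Hist1h4j) lay between 8.17 and 30.45 TPM. The lone gene of the Hist4 cluster, Hist4h4 on chromosome 6, had 3.20 TPM in library 1 and 1.03 TPM in library 2, just above the detection limit.

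H2B genes had a median of 16.1 TPM, with 14 of 16 detected. Hist1h2bg had 97.0 TPM in library 1 and 78.8 TPM in library 2, Hist1h2bc 78.8 and 74.2 TPM, and Hist1h2bk 56.1 and 38.05 TPM. The other detected H2B genes lay between 1.49 and 35.3 TPM, and no H2B gene reached 100 TPM in either library. Hist1h2bq, at 0.520 TPM in library 1 and 0.380 in library 2, stayed under 1 TPM.

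The linker genes were low except for 1. Hist1h1c, the gene of histone H1.2, had 18.8 TPM in library 1 and 23.0 TPM in library 2. Hist1h1e had 5.31 TPM in library 1 and 5.01 TPM in library 2, Hist1h1d 3.42 and 2.48 TPM, and Hist1h1b 2.86 and 2.12 TPM. Hist1h1a was at 0.440 TPM in library 1 and 0.340 in library 2. Hist1h1c was the H1 gene with its lower value in library 1.

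Of the 67 genes, 7 were listed at 0 in both libraries. They include the testis histone genes Hist1h1t, Hist1h2aa and Hist1h2ba. Taking 3 counts as the most that a count of 0 permits, the limit for Hist1h1t was 0.121 TPM in library 1 and 0.107 in library 2, for Hist1h2aa 0.352 and 0.295 TPM, and for Hist1h2ba 0.364 and 0.305 TPM. The pseudogene Hist1h2al was also at 0. Hist1h2ba and Hist1h2al share 33.0% and 44.7% of their 76-base stretches with other histone genes, so their 0 also depends on how shared reads were divided. Hist1h2ao, Hist1h4m and Hist2h3c1 were at 0 beside a close copy that was not, and 93.1%, 89.0% and 33.9% of their 76-base stretches also occur in other histone genes. The deposited upper bound for Hist1h4m was 2.27 TPM in library 1 and 7.95 in library 2, for Hist1h2ao 0.953 and 0.446 TPM, and for Hist2h3c1 0.126 and 0.0999 TPM. The sources used here do not state the confidence level of these bounds. A value of 0 for these 3 genes likewise depends on how reads were divided among copies.

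By cluster, the 54 Hist1 genes on chromosome 13 had a median of 22.6 TPM and 46 were detected. The 9 Hist2 genes on chromosome 3 had a median of 33.9 TPM and 8 were detected. All 3 Hist3 genes on chromosome 11 were detected, with Hist3h2a at 18.1 TPM in library 1 and 13.3 in library 2 and Hist3h2ba at 19.1 and 11.9 TPM. The third, the pseudogene Hist3h2bb-ps, had 1.80 TPM in library 1 and 1.49 TPM in library 2.

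Shared sequence limits how far a level belongs to a single gene. Every 76-base stretch of the M21 transcripts was compared, and genes that share at least 50% of their stretches with a single other histone gene were joined. This gave 7 units that hold 36 of the genes, while 31 stood alone. A gene that stood alone can still share much sequence with several others, as Hist1h3e (58.9%) and Hist1h2bf (55.7%) did. The deposited models of 22 transcripts differ in length from M21, so their shares may differ too. The largest unit joined 12 H2A genes of the Hist1 cluster, Hist1h2ap and Hist1h2af among them, and summed to 2207 TPM in library 1 and 1167 TPM in library 2. Hist1h2ap shared 92.6% of its stretches and Hist1h2af 70.1%. Of the Hist2 genes, Hist2h2aa1, Hist2h2aa2, Hist2h3b, Hist2h3c1 and Hist2h3c2 also share over 50% of their stretches with Gm20634, a transcript annotated over Hist2h2aa1 and Hist2h3c1 on the same strand that held 7.0 TPM in library 1 and 5.75 in library 2. That transcript contains 100% of the stretches of Hist2h2aa2 and of Hist2h3c1. In all, 46 of the histone genes share some stretches with genes outside the set analysed. Hist1h2ap shares 30.5% of its stretches with Gm11336, and Hist1h2bf 30.3% with the unmatched Hist1h2bh. Within the deposited bounds, Hist1h2ap lay between 1128 and 1167 TPM in library 1 and between 325 and 346 TPM in library 2.

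Gene length bears on these levels too. The histone genes have a median annotated length of 480.0 bases, against 1960.0 bases for protein-coding genes. TPM divides by an effective length, the stretch in which a fragment can start, and this was 213 bases below the annotated length in library 1 and 197 bases below it in library 2. For Hist1h4k, the shortest gene at 312 bases, it was 99.1 bases in library 1 and 115 bases in library 2. The expected count of Hist1h4k was 344 in library 1 and 495 in library 2, a larger relative gap than between its TPM values. When counts were instead divided by full annotated length and rescaled like TPM, Hist1h2ap stood at 896 in library 1 and 273 in library 2, and Hist1h2af at 446 and 450.4.

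The transcript models show where the annotated ends lie relative to the stem-loop. Of 72 transcripts, 64 are single-exon in M21. In 50 the deposited length equals that of M21, so that the end is known. Among these, 15 end within 50 bases of the stem-loop, 11 run further and 24 hold no match. The 15 that end near the stem-loop held 40.03% of histone TPM in library 1 and 30.5% in library 2. Those that run past it held 8.64% in library 1 and 8.86% in library 2, and those with no match 35.0% and 41.5%. Of the 24 models with no match, 10 hold the coding sequence alone and leave out what follows it. The model of Hist1h2af, also without a match, has 399 bases, of which 390 are coding. The lack of a match in such models does not show that the RNA lacked a stem-loop. Since longer models take more reads per molecule, the models that run past held 21.3% of histone counts in library 1 and 21.5% in library 2. The other 22 transcripts, with 16.4% of TPM in library 1 and 19.2% in library 2, have a different length in M21 and were not placed.

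A poly(A) signal, AATAAA or ATTAAA in the last 40 bases, was in 7 of the 11 models that run past the stem-loop and in 0 of the 15 that end near it. It was in 6 of the 24 models without a match, and in 48.7% of 58725 protein-coding transcripts of other genes. The model of Hist1h2ap stops 3 bases after the stem-loop, those of Hist2h2aa1 and Hist2h2aa2 35 bases after it. The longest continuation of a model that was placed belonged to Hist3h2a, 1643 bases past the stem-loop with a signal at its end. Hist2h4, at 13.9 TPM in library 1 and 8.38 in library 2, ran 1257 bases past with a signal, and Hist1h1c 840 bases past with a signal. Hist2h3c2, the highest model of this kind, ran 377 bases past and had no signal in its last 40 bases. The tables assign reads to models and do not locate the ends of the RNA, so they do not show whether the RNA of a model that stops at the stem-loop carried a tail.

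**Figure D3:**
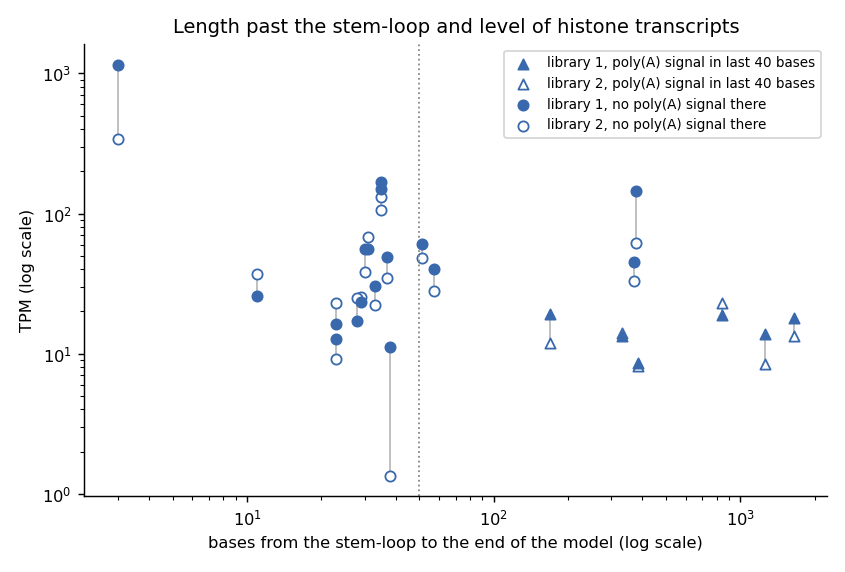
TPM (log axis) against the bases from the stem-loop to the end of the model (log axis) for the 23 placed transcripts above 0 TPM, with library 1 filled, library 2 open, triangles for models with a poly(A) signal in the last 40 bases and a dotted line at 50 bases. All triangles lie right of the line, and Hist1h2ap stands alone at 3 bases and the highest TPM. Models left of the line have limited room for a signal after the stem-loop.

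H2A and H2B genes often lie head to head, and 13 such pairs had starts 173 to 306 bases apart. Both partners were above 0 in 11 pairs. The H2A partner had the higher TPM in both libraries in 7 of these and the H2B partner in 4, and in no pair did the order differ between libraries. The 7 include Hist3h2a with the pseudogene Hist3h2bb-ps, and Hist2h2ac with Hist2h2be. Hist2h2ac and Hist2h2be had 589 and 444 counts in library 1 and 476 and 382 in library 2, on models of 520 and 2620 bases. At the promoter printed above, Hist1h2ae had 32.4 TPM in library 1 and 19.7 TPM in library 2, below Hist1h2bg. At the other, Hist1h2br had 7.92 TPM in library 1 and 5.88 TPM in library 2, far below Hist1h2ap. The widest gap in the other direction was between Hist1h2ac, at 10.9 TPM in library 1 and 5.93 in library 2, and Hist1h2bc. These levels carry the reservation on shared sequence given above.

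**Figure D4:**
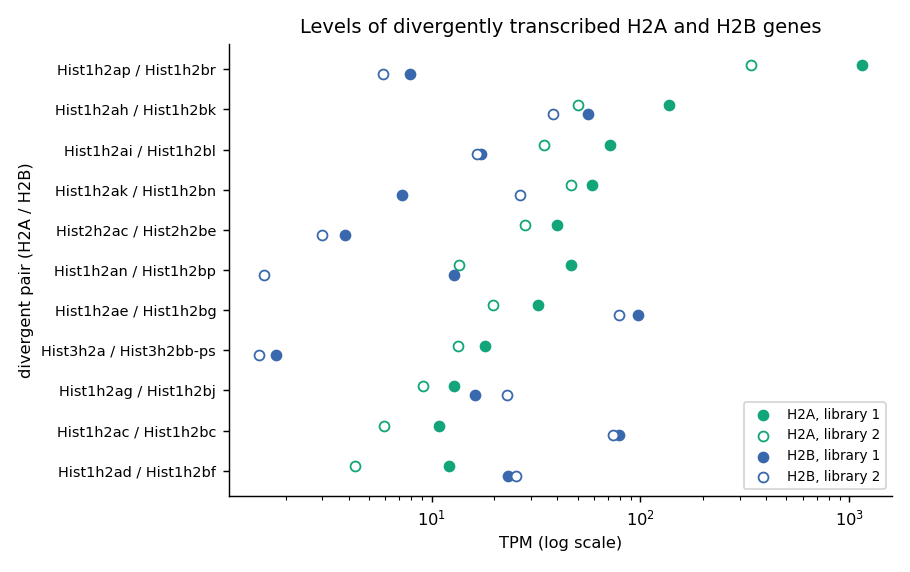
TPM (log axis) of the H2A and the H2B gene of each of the 11 divergent pairs with both partners above 0, ordered by the H2A level, with library 1 filled and library 2 open. H2A lies to the right in 7 pairs and H2B in 4, in both libraries alike.

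Most histone genes took more counts in library 1. An exact two-sided binomial test of rounded expected counts against scaled library sizes, with Benjamini-Hochberg adjustment over all 17547 genes with 10 or more counts, placed 33 of the 60 histone genes tested higher in library 1 and 10 lower, at an adjusted p of 0.05. Over all genes tested the shares were 26.4% higher and 23.9% lower. The test compares these 2 libraries beyond counting error and holds no estimate of the spread between animals. The median log2 ratio of the histone genes was 0.31, and that of all genes tested was -0.00499. Of the 60 tested, 43 had a log2 ratio above 0 and 17 below, while by TPM 50 histone genes were higher in library 1 and 10 lower. The direction of a gene could thus differ between TPM and counts, as for Hist1h2af and Hist2h2aa2. Haemoglobin and exocrine pancreas genes, 44 in all, held 31.6% of TPM in library 1 and 40.7% in library 2. TPM has a fixed total, so such shares bear on the TPM of other genes, and their part here was not tested. In whole tissue, fewer cells of a type and less RNA per cell cannot be told apart.

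The class counts below stand against 26.4% higher and 23.9% lower among all genes tested. By class, 11 of 17 H2A genes tested were higher in library 1 and 2 lower, and 10 of 11 H3 genes were higher and 1 lower. Of 12 H4 genes 5 were higher and 3 lower, and of 15 H2B genes 7 were higher and 3 lower. None of 5 H1 genes was higher and 1, Hist1h1c, was lower, with 1221 counts in library 1 and 1651 in library 2 (log2 ratio -0.42). Hist1h2ap moved the class sums: the log2 ratio of summed H2A counts was 0.66 with it and 0.18 without it, and that of all histone counts 0.48 and 0.26. Since Hist1h2ap shares 92.6% of its 76-base stretches with other histone genes, the values without it depend on how shared reads were divided.

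Among histone genes past the test, 8 were over 2-fold higher and 1 over 2-fold lower in library 1, with no prior count. The share of all genes tested that meet this cut is not given here, so these counts have no reference. Hist1h2bp had 169 counts in library 1 and 24.5 in library 2, a fold of 6.997 with a 95% exact counting interval of 4.64 to 11.4. Hist1h2ap had 14977 counts in library 1 and 5069 in library 2, a fold of 2.99 (2.90 to 3.09). Hist1h2an followed with 406 counts in library 1 and 140 in library 2 (log2 ratio 1.54), Hist4h4 with 411 and 146 (1.499), and Hist1h2ad with 146 and 60.3 (1.26). Hist1h2ap, Hist1h2an and Hist1h2ad belong to the same unit of 12 H2A genes that share sequence. Their separate counts depend on how shared reads were divided, which the interval leaves out. Hist4h4 shares none of its 76-base stretches with another histone gene, and its fold was 2.85 (2.36 to 3.47).

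The gene furthest in the other direction was Hist1h2bn, with 58.2 counts in library 1 and 256 in library 2, a fold of 0.231 (0.170 to 0.306). Also past the test and lower in library 1 were Hist1h4b (log2 ratio -0.75), Hist1h2ab (-0.72), Hist1h2bj (-0.70) and Hist1h4n (-0.51). Of the 10 genes lower in library 1, 4 (Hist1h2af, Hist1h2ab, Hist1h4k and Hist1h4b) belong to units of shared sequence whose summed counts were higher in library 1. Hist1h2af was lower by counts, with 6177 in library 1 and 6920 in library 2, although its TPM was higher in library 1. Hist1h2bn and Hist1h2bj belong to a unit of 6 H2B genes that share sequence, and the summed counts of that unit, 1546 in library 1 and 1661 in library 2, did not pass the test (adjusted p = 0.166, exact binomial). The unit of 12 H2A genes had 24686 counts in library 1 and 14170 in library 2 (log2 ratio 0.82), and the unit of 6 H4 genes with Hist1h4k and Hist1h4b had 2634 and 2204 (0.28). After units were summed, 17 of the 38 units and lone genes were higher in library 1 and 4 lower, against 26.4% and 23.9% of all genes tested singly. The 38 include Hist1h1t, Hist1h2aa, Hist1h2al and Hist1h2ba, which had no counts and were not tested.

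**Figure D5:**
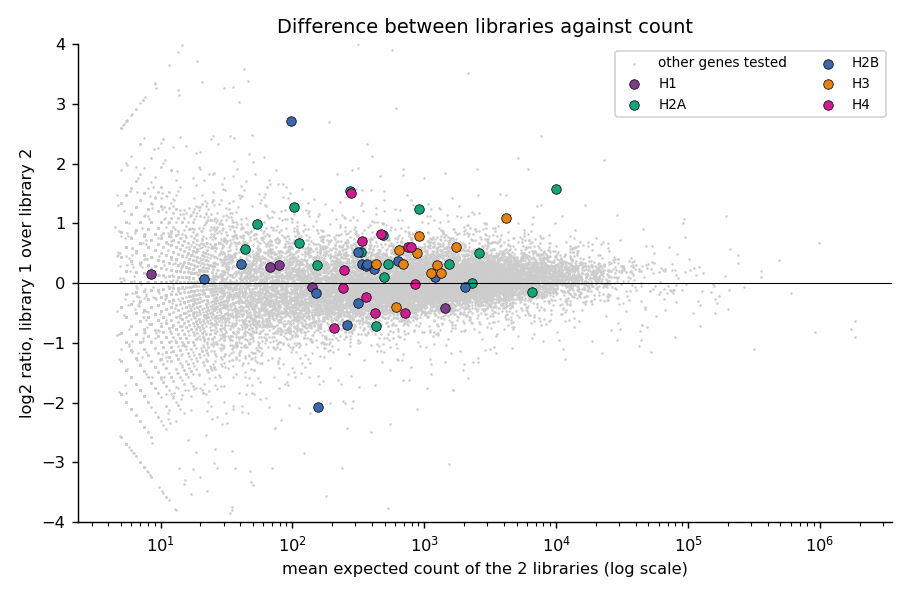
Log2 ratio of library 1 over library 2 against mean expected count (log axis), with histone genes coloured by class over 17487 other genes tested in grey, of which 43 lie beyond the axis limits of 4 either way. Histone points lie mostly above 0, with Hist1h2bp highest and Hist1h2bn lowest among them.

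Histone genes outside the clusters, most of which are not tied to S phase and whose mRNAs usually carry a tail, were measured beside them. Of 11 such genes 10 were detected, and they summed to 1806 TPM in library 1 and 1258 TPM in library 2, or 0.408 and 0.446 times the clustered genes. H2afz, the H2A.Z variant, led with 636 TPM in library 1 and 403 TPM in library 2, followed by H3f3a, an H3.3 gene, with 359.6 and 328 TPM. H2afx, which makes both stem-loop and polyadenylated mRNA, had 232 TPM in library 1 and 105 in library 2 (log2 ratio 1.01). By the same binomial test 9 of the 11 were higher in library 1 and 0 lower, with a median log2 ratio of 0.23. Among all genes tested, 26.4% were higher and 23.9% lower.

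Of 12 genes listed for the making and processing of histone mRNA, not all of which cut the pre-mRNA, 11 were detected. Slbp, which encodes the stem-loop binding protein, had 51.4 TPM in library 1 and 26.7 in library 2 (log2 ratio 0.59). Sympk, the scaffold shared with ordinary polyadenylation, had 79.55 TPM in library 1 and 60.5 TPM in library 2, and the U7 subunit gene Lsm10 had 23.5 and 20.3 TPM. Npat, the coactivator of clustered histone genes, had 1.68 TPM in library 1 and 1.25 TPM in library 2. In this list 5 genes were higher in library 1 and 1, Cpsf2, lower, against 26.4% and 23.9% of all genes tested. Zfp473 was the gene not detected.

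Of 16 S phase genes 15 were detected, 8 were higher in library 1 and 1, Mcm6, was lower, with a median log2 ratio of 0.17. The shares over all genes tested were 26.4% higher and 23.9% lower. Pcna, the replication clamp, had 109 TPM in library 1 and 73.5 TPM in library 2, and Rrm2, a subunit of ribonucleotide reductase, had 20.8 and 11.5 TPM. Mki67 did not pass the test, at 4.83 TPM in library 1 and 4.31 in library 2. All 7 histone chaperone genes were detected, and against the same 26.4% and 23.9%, 2 were higher and 2 lower in library 1. Among them Nasp, a chaperone of H3 and H4, had 1.79 TPM in library 1 and 2.39 TPM in library 2, and Chaf1a, a subunit of the assembly factor CAF-1, had 5.78 and 3.83 TPM. The part of these genes in the difference between libraries was not tested.

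The tissue label was checked with marker genes. All 7 spleen markers were detected, from 6.66 to 1130 TPM in library 1 and from 11.1 to 1048 TPM in library 2. The erythroid marker Alas2 was at 509 TPM in library 1 and 1048 in library 2. All 4 exocrine pancreas markers were also present and summed to 7.35% of TPM in library 1 and 5.59% in library 2. Of these, Ctrb1 was higher in library 1 (log2 ratio 0.67), while Cela2a (-0.17), Clps (-0.05) and Prss2 (-0.06) were lower, and the 4 testis markers summed to 0.130 and 0.510 TPM with Tnp1 and Acrv1 at 0. The part of these tissue differences in the histone values was not tested.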

How the data were processed

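The authors' deposited gene and transcript tables give expected counts, which are estimated read numbers and not normalized, and TPM, scaled over all entries. Per the deposited notes they use mm10 (GRCm38) and GENCODE M4. The sources used here name no aligner, quantifier or strand setting. The deposited percent of a gene's TPM per transcript was not used. Symbols, positions and transcript sequences came from GENCODE M21, matched by unversioned identifier for 98.0% of genes. The members and lists were chosen with earlier results of these data known. Named genes were the 25 highest by mean TPM, the highest of each class and cluster, the testis histones, up to 5 genes per direction past the test with the largest log2 ratio, and the lists. Counts were rounded for tests. Library sizes were scaled by TMM in edgeR 4.0.16 (R 4.3.3). DESeq2 1.42.0 size factors were an alternative. Log2 ratios use a prior count of 2. Intervals cover counting error only. The test was checked on simulated data. Python 3.11.15, pandas 2.3.3, numpy 2.4.6, scipy 1.17.1 and matplotlib 3.10.9 did the rest.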

Additional observations from a re-analysis of the deposited data

How the results depend on the processing

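The number of detected histone genes stayed between 48 and 58 under the alternatives run, which were other TPM limits, posterior mean TPM, coding genes alone, full annotated length and a single library. The median level was 22.6 TPM over coding genes alone, 26.2 TPM over genes with a count in both libraries, and 18.6 with levels taken per full annotated length, an alternative chosen after seeing the data. With a single library it was 22.3 to 23.2 TPM, the share of TPM was 0.286% to 0.446%, the share of the 5 highest genes was 46.7% to 52.5%, and the share past the stem-loop was 8.64% to 8.86%. Leaving 44 haemoglobin and exocrine pancreas genes out of the total gave a share of 0.567% (mean of both libraries), against 0.366%. The share of TPM in models past the stem-loop, 8.75% at 50 bases, was 24.0% at 20 bases and 5.84% at 200 bases, because other models then count. Between libraries, 17 of 38 units and lone genes were higher and 4 lower after genes that share sequence were summed, against 33 and 10 of 60 genes tested. Fewer items were tested, and of the 10 lower genes 4 fell into units that were higher and 2 into a unit that did not pass. Removing trends with GC content and length left 29 higher and 12 lower of 60, against 24.7% and 21.7% of all genes tested, with a median log2 ratio of 0.25. Summing and trend removal were also chosen after seeing the data. Other scalings, count minimums, priors and posterior mean counts gave 32 to 34 genes higher, 10 to 12 lower and a median log2 ratio of 0.30 to 0.34. No paired analysis was possible because there is 1 group of 2 samples. Low members are limited by depth, and reads divided among near-identical copies carry an uncertainty that the counting interval leaves out.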
